A study of Mus musculus with 12 samples.

Results

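The lysyl oxidase family was followed in chondrocytes, the cells that make cartilage matrix, in primary culture from mice. Its 5 genes, Lox, Loxl1, Loxl2, Loxl3 and Loxl4, were chosen by symbol, and each matched 1 of the 57010 Ensembl gene IDs in the count tables. RNA was counted in 12 libraries, 4 in each of 3 groups, all from cells labelled as wild type in genotype. The Control group has no further description, and what these cells received is not given in the sources used here. The second group is labelled WT, from cells given a wild-type plasmid, and the third is labelled SIRT5F101L, from cells that received the mutant plasmid of that name. SIRT5 is a sirtuin of mitochondria, known for taking succinyl, malonyl and glutaryl marks off lysine side chains. The age, sex and strain of the mice, the number of animals behind a library and the time after transfection are not given in the sources used here, so p-values measure the spread between these libraries, which may be technical.

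Lysyl oxidases are secreted copper-dependent amine oxidases. They oxidise lysine and hydroxylysine residues of collagen and elastin to aldehydes, which then condense into the crosslinks that make collagen fibrils and elastic fibres insoluble and stiff. Lox and Loxl1 are made with a propeptide that is cut off outside the cell, and Loxl2, Loxl3 and Loxl4 carry scavenger receptor cysteine-rich domains in place of it. In cartilage this chemistry joins the collagen chains of the fibril network that holds aggrecan.

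The catalytic end is the part that the family shares. The stretch of coding sequence around its copper-binding histidines is shown for the 4 members whose sequence is printed here, to let a reader see how alike these genes are at the copper site and whether reads from one could be taken for another. Sequences are from the longest GENCODE M21 transcript of each gene, 5′ to 3′, in 99 bases centred on the 33 bases that encode the copper site, and capitals mark the 45 positions at which the 4 are not all the same.
Loxl1: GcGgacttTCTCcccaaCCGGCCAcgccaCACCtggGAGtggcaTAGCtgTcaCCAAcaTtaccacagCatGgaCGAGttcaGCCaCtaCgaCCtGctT
Loxl2: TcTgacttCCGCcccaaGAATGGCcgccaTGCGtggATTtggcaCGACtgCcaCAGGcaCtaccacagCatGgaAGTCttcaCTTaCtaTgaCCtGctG
Loxl3: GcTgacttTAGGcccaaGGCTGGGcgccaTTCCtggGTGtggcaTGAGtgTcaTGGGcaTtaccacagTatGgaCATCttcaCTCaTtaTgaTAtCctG
Loxl4: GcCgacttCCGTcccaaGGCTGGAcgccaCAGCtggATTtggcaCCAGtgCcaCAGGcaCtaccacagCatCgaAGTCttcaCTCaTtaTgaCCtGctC
The 54 other positions were shared by these 4 genes. In this stretch Lox was 85.9% identical to Loxl1 and 61.6% to 64.6% identical to Loxl2, Loxl3 and Loxl4, while Loxl2 and Loxl4 were 83.8% identical. Over whole transcripts, the longest identical run between any of the 10 pairs of members was 11 to 32 bases. The most alike 150-base windows, the length of one sequenced read, were 64.7% to 84.7% identical. These values describe how far the members can be told apart by reads, and the way in which the authors' counting treated reads that fit several genes is not given in the sources used here.

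Facts of the series that touch the family are few. Libraries held 15095357 to 24242139 counts, and every member had at least 1017 counts in every library, so counting error was small for all 5. Sirt5, the gene named on the plasmids, had 9 to 16 counts in Control, 1 to 9 in the libraries labelled WT and 9 to 19 in those labelled SIRT5F101L. A rise with either plasmid was therefore not detectable in these counts, and the group names below are those of the labels. SIRT5F101L replicate 1 stood apart from its group on the second principal component of all tested genes, at 20.3 against -23.5 to -17.0, and in how its deviations follow transcript length, with a slope of -0.0588 against 0.0809 to 0.103 on the log2 scale. It lay nearer to the libraries labelled WT than to its own group: on that component these ran from -1.07 to 20.1, and its counts differed from theirs by 2.61 to 6.27 times sampling noise but from its own group by 8.20 to 8.92 times. Whether its label is right was not tested. WT replicate 1 lay off its group to a lesser degree, at -1.07 on that component against 12.45 to 20.05 and with a slope of 0.0521 against -0.0361 to 0.00235. Its counts differed by 3.63 to 5.80 times sampling noise from the other WT libraries and by 4.01 to 4.75 times from SIRT5F101L replicates 2 to 4. All 13 chondrocyte markers were detected in every group, and their summed level was 8161 to 10199 CPM (a gene's counts in each 1000000 counts of the library, with library sizes scaled by TMM) in Control, 2268 to 2420 in libraries labelled WT and 1804 to 2025 in those labelled SIRT5F101L. Most of that sum is Col2a1 and Comp. Counts of markers called are to be read against all tested genes, of which 56.8% were called for WT (28.1% lower) and 60.7% for SIRT5F101L (30.7% lower). In each plasmid group 11 of the 13 were called lower, while Hapln1 was called higher in both (82.2 CPM in Control, 97.8 in WT and 93.1 in SIRT5F101L) and Acan was called higher for WT and not for SIRT5F101L (133, 185 and 143 CPM). Fibroblast markers, 8 genes including the type I collagen chains, summed to 30461 to 36352 CPM in Control and 10975 to 12340 CPM over both plasmid groups. Most of that sum is Col1a1, Col1a2 and Col3a1, which are also counted below as substrates. Of the 8 markers, 6 were called lower and 2 higher in each plasmid group, the latter being Dcn (414 CPM in Control, 1125 in WT and 1304 in SIRT5F101L) and Pdgfra (200.1, 263 and 307 CPM). Macrophage and other leukocyte markers summed to 173 to 210 CPM in Control and 131 to 179 CPM over both plasmid groups, with 8 of 11 markers above 0 in each group. Of these 8, 7 were called lower and 1 higher in each plasmid group. The one called higher was Cd14 (12.4, 51.3 and 59.8 CPM), and Lyz2, the most abundant in Control, was called lower (125, 60.5 and 61.1 CPM). Osteoblast markers summed to 63.8 to 73.8 CPM in Control and 39.5 to 61.6 over both plasmid groups, with 3 of 5 tested called lower and none higher in each. Runx2 made up most of that sum and was not called in either plasmid group (45.8, 42.6 and 50.3 CPM). Ibsp was called lower (14.7, 0.284 and 0.146 CPM). Muscle markers summed to 22.9 to 27.0 CPM and 5.95 to 7.97 (3 of 3 tested called lower), and adipocyte markers to 17.8 to 20.2 CPM and 3.69 to 6.24, with the 1 tested marker, Pparg, called lower. Endothelial markers summed to 6.74 to 7.56 CPM and 7.25 to 9.98 (1 of 5 tested called higher), and erythroid markers to at most 0.765 CPM in any library. The part of these shifts in the results on the family was not tested, and in bulk RNA fewer cells of a type and less RNA per cell cannot be told apart.

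Lox was the dominant member. Per kilobase of exon, which is the scale used here to compare genes, its level in Control was 1642 ± 58.9 CPM per kb (SD, n = 4), the 14th highest of 14080 genes ranked. Loxl1 followed at 116 ± 5.62, then Loxl4 at 75.1 ± 9.26, Loxl3 at 39.7 ± 2.502 and Loxl2 at 16.03 ± 1.03 CPM per kb. No neighbours in this order overlapped over the 4 Control libraries. Lox alone took 0.756% of all counts in the Control libraries, and 0.413% and 0.450% in those labelled WT and SIRT5F101L. Genes of the X and Y chromosomes and mitochondria are listed at 0 in every library, so none could enter the ranking or these totals.

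In both plasmid groups the order was Lox, Loxl4, Loxl3, Loxl1, Loxl2, again with no overlap between neighbours. Loxl4 reached 254 ± 13.3 CPM per kb in libraries labelled WT and 225 ± 14.99 in those labelled SIRT5F101L, the 155th and the 164th highest level of the 14080 genes. Loxl1 moved from the second place to the fourth.

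Compared with Control, both plasmid groups had less Lox, Loxl1 and Loxl2 mRNA and more Loxl3 and Loxl4 mRNA. In edgeR's quasi-likelihood test across 14253 genes, called at a Benjamini-Hochberg adjusted p under 0.05, 5 of 5 members were called in libraries labelled WT and 5 of 5 in those labelled SIRT5F101L, 3 lower and 2 higher each time. Calls were common: 56.8% of all tested genes were called for WT (28.7% higher, 28.1% lower) and 60.7% for SIRT5F101L (30.0% higher, 30.7% lower), so the number of members called is to be read against that share. All 5 members also had no overlap between groups in each comparison, as did 53.5% and 51.3% of all tested genes. The median size of the change, without regard to sign, was 0.95 on the log2 scale over the members and 0.37 over all tested genes for WT, and 0.82 and 0.40 for SIRT5F101L. These comparisons share their Control libraries and are not independent of each other.

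Lox encodes the founding enzyme of the family, which crosslinks fibrillar collagen and elastin. Its level was 7446, 8055, 7861 and 8029 CPM in the 4 Control libraries. It was 4200, 3863, 4218 and 3933 CPM in the libraries labelled WT, and 3929, 4997, 4447 and 4388 CPM in those labelled SIRT5F101L. Every plasmid library was below every Control library, and SIRT5F101L spread over a wider range than WT. On the log2 scale WT differed from Control by -0.95 (SE 0.07, edgeR adjusted p 3.84e-10) and SIRT5F101L by -0.82 (SE 0.07, edgeR adjusted p 3.46e-09), a level 1.94-fold and 1.77-fold lower. A larger fall was seen in 8.30% and 10.95% of tested genes. An annotated transcript on the opposite strand, AC161119.1, shares 0.628% of Lox exon sequence and went the other way, from 37.0 ± 1.81 CPM in Control to 64.2 ± 5.18 and 61.5 ± 5.24 CPM (log2 fold change 0.79 and 0.73, edgeR adjusted p 2.21e-08 and 6.85e-08).

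Loxl1, which is tied above all to elastic fibre assembly, also fell. Control libraries held 400, 357, 391 and 378 CPM. Libraries labelled WT held 238, 232, 264 and 222 CPM, and those labelled SIRT5F101L 238, 213, 221 and 236 CPM. The lowest Control library stood well above the highest plasmid library, and the ranges of the plasmid groups overlapped. On the log2 scale WT differed from Control by -0.67 (SE 0.06, edgeR adjusted p 1.75e-08) and SIRT5F101L by -0.75 (SE 0.06, edgeR adjusted p 3.40e-09).

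Loxl2, an enzyme that acts on type IV as well as fibrillar collagen, was the least expressed member and changed least. It was measured at 83.2, 80.7, 92.5 and 90.1 CPM in Control, at 61.0, 65.2, 70.0 and 64.7 CPM in libraries labelled WT and at 71.1, 74.3, 72.4 and 75.0 CPM in those labelled SIRT5F101L. The 3 groups did not overlap, with SIRT5F101L between the other two. On the log2 scale WT differed from Control by -0.41 (SE 0.06, edgeR adjusted p 1.38e-05) and SIRT5F101L by -0.24 (SE 0.06, edgeR adjusted p 0.00233). A larger fall was seen in 22.7% and 34.2% of tested genes. Gm27177 covers 5.57% of Loxl2 exon sequence on the opposite strand and had at most 2 counts in any library. Mir6950 covers 0.13% on the same strand and is listed at 0. The part of shared reads in the counts of Loxl2 was not tested.

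Loxl3, which is needed for palate and spine cartilage in mice, rose. Control libraries held 188, 168, 180 and 195 CPM. Libraries labelled WT held 478, 532, 498 and 512 CPM, and those labelled SIRT5F101L 476.1, 407, 442 and 455 CPM. The 3 groups did not overlap, with the libraries labelled SIRT5F101L just under those labelled WT and both far above Control. On the log2 scale WT differed from Control by 1.47 (SE 0.06, edgeR adjusted p 1.05e-13) and SIRT5F101L by 1.28 (SE 0.06, edgeR adjusted p 7.92e-13), a 2.76-fold and 2.43-fold higher level. Htra2, a gene for a mitochondrial protease, covers 11.6% of Loxl3 exon sequence on the opposite strand, so reads there cannot be assigned without strand, and the strand setting of the counting is not given in the sources used here. Htra2 itself was counted at 28.8 ± 1.91 CPM in Control, 43.3 ± 2.08 in libraries labelled WT and 36.9 ± 7.72 in those labelled SIRT5F101L. The part of shared reads in the rise of Loxl3 was not tested.

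Loxl4 had the largest change of the family. Its level was 367, 273, 319 and 306 CPM in Control libraries. It was 1151, 1018, 1058 and 1061 CPM in libraries labelled WT, and 893, 899, 977 and 1023 CPM in those labelled SIRT5F101L. Groups were far apart against Control and overlapped with each other. On the log2 scale WT differed from Control by 1.76 (SE 0.08, edgeR adjusted p 1.51e-13) and SIRT5F101L by 1.58 (SE 0.08, edgeR adjusted p 7.21e-13), a 3.39-fold and 2.996-fold higher level. A larger rise was seen in 4.02% and 5.22% of tested genes. Exons of Loxl4 and of Loxl1 had no overlap with other genes in GENCODE M21.

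**Figure D1:**
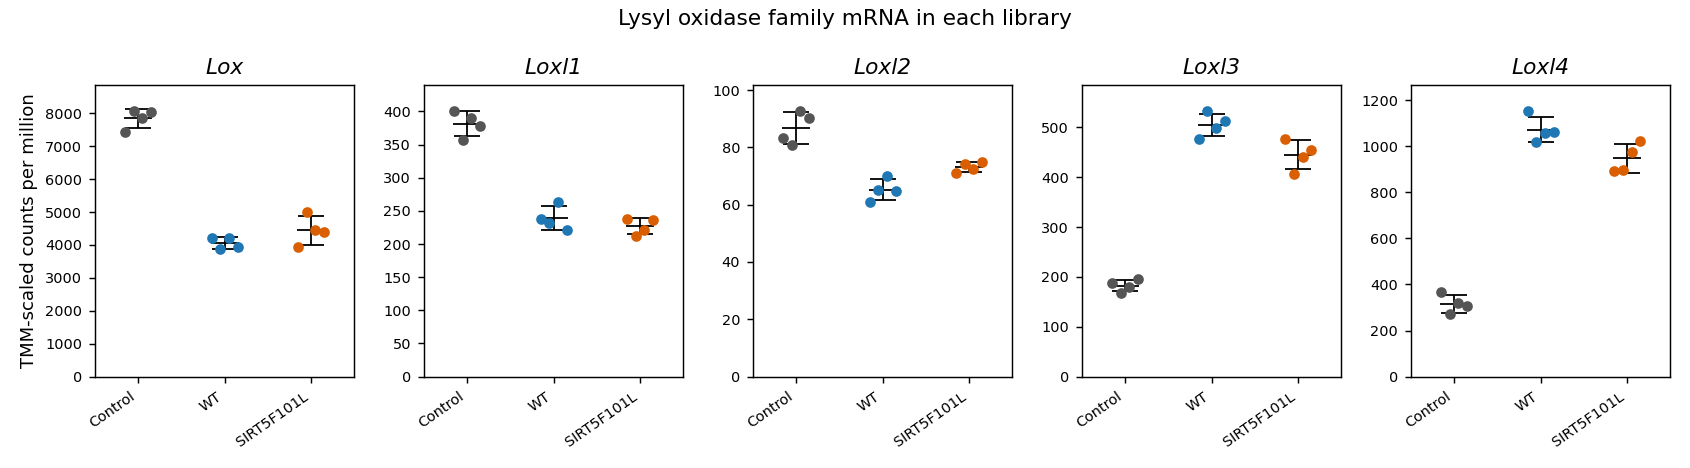
Level in CPM, scaled by TMM (vertical axes, each starting at 0) of the 5 family members in the 4 libraries of each group (points), with the mean and SD (black). Lox, Loxl1 and Loxl2 are lower and Loxl3 and Loxl4 higher in every plasmid library than in every Control library.

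The promoter of Loxl4, the member with the largest change, is the one member promoter shown. It covers 250 bases before to 50 after the transcription start in RefSeq (GRCm38.p6, chr19:42612757-42613056, minus strand), and capitals mark a match to the NF-kB consensus.
Loxl4 promoter: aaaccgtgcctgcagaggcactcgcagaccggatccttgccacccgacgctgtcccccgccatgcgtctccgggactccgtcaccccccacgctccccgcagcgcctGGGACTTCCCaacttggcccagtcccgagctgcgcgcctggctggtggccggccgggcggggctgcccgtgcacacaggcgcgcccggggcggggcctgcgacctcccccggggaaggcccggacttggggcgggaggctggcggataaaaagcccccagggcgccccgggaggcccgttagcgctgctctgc
The match runs from position 108 to 117 of the window and, being nearly palindromic, was found on both strands. A match to this consensus was present in 8.46% of 32851 promoters of the same length. The GC box GGGCGG was found at 3 places (35.7% of promoters hold it), and the hypoxia response core GCGTG at 1 (32.4%). The AP-1 site TGANTCA (7.81% of promoters), the other hypoxia core ACGTG (19.6%), TATAAA (13.6%), the STAT site TTCNNNGAA (8.30%) and the SMAD palindrome GTCTAGAC (0.213%) had no match on either strand. Each match is a description of letters, and binding was not measured.

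Whether the mutant and the wild-type plasmid left the family at different levels was asked directly. By edgeR's test 0 of 5 members were called, against 0.0421% of all tested genes (6 of 14253). DESeq2 also called 0 members, and 39 of 14253 genes. Loxl2, Loxl3 and Loxl4 had an unadjusted p under the threshold, as did 11.9% of tested genes. Libraries labelled SIRT5F101L minus those labelled WT gave a log2 difference of 0.13 for Lox (95% interval -0.01 to 0.28, edgeR adjusted p 0.449). For Loxl1 it was -0.08 (-0.21 to 0.06, edgeR adjusted p 0.627). For Loxl2 it was 0.17 (0.03 to 0.30, edgeR adjusted p 0.364), with no overlap between these groups. For Loxl3 it was -0.18 (-0.31 to -0.05, edgeR adjusted p 0.360), also with no overlap, and for Loxl4 -0.18 (-0.34 to -0.02, edgeR adjusted p 0.389). No overlap was found for 4.02% of all tested genes. The intervals leave room for differences of up to 0.34 on the log2 scale, all smaller than the changes of Lox, Loxl1, Loxl3 and Loxl4 against Control. The count rested on 1 library, the one that lay nearer to the WT libraries than to its own group. Without SIRT5F101L replicate 1, Lox (0.19, edgeR adjusted p 0.0436) and Loxl3 (-0.22, edgeR adjusted p 0.0139) were called, in a fit in which the count over all genes went from 6 to 2213. Over the 20 alternatives the edgeR and DESeq2 adjusted p ran from 0.0436 to 0.821 for Lox and from 0.0139 to 0.743 for Loxl3. Against Control, 5 of 5 members were called without that library too.

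**Figure D2:**
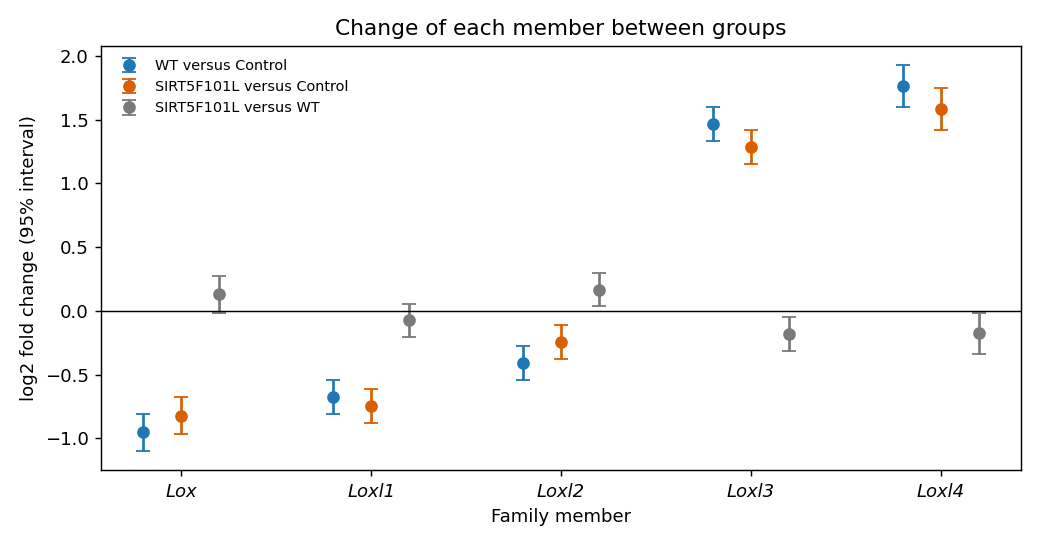
Log2 fold change with its 95% interval (vertical axis) of each family member (horizontal axis) for WT against Control, SIRT5F101L against Control and SIRT5F101L against WT, from the fit of all 12 libraries. Changes against Control run from -0.95 for Lox to 1.76 for Loxl4, while differences between the plasmid groups lie between -0.18 and 0.17.

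The make-up of the family also differed between groups. Summed over the 5 members per kilobase, the level was 1823, 1910, 1896 and 1927 CPM per kb in Control, 1340, 1248, 1335 and 1266 in libraries labelled WT, and 1223, 1426, 1339 and 1345 in those labelled SIRT5F101L. Without Lox, the sum of the other members went the opposite way, from 246 ± 16.6 CPM per kb in Control to 449 ± 9.52 and 404 ± 19.5. Lox held 86.9% ± 1.14 of the family level in Control, 65.4% ± 0.604 in libraries labelled WT and 69.6% ± 2.67 in those labelled SIRT5F101L. The share of Loxl4 was 3.98% ± 0.586, 19.6% ± 0.683 and 16.9% ± 1.35 in the same order, and that of Loxl3 2.10% ± 0.148, 8.48% ± 0.679 and 7.29% ± 0.927. Loxl1 kept a share of 5.19% to 6.13% and Loxl2 of 0.849% to 1.02% in the group means. The ratio of Lox to Loxl4 per kilobase was 22.2 ± 3.38 in Control, 3.34 ± 0.130 in WT and 4.14 ± 0.514 in SIRT5F101L. These shares and sums are descriptions, given with no test, and mRNA does not give enzyme amount or activity.

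**Figure D3:**
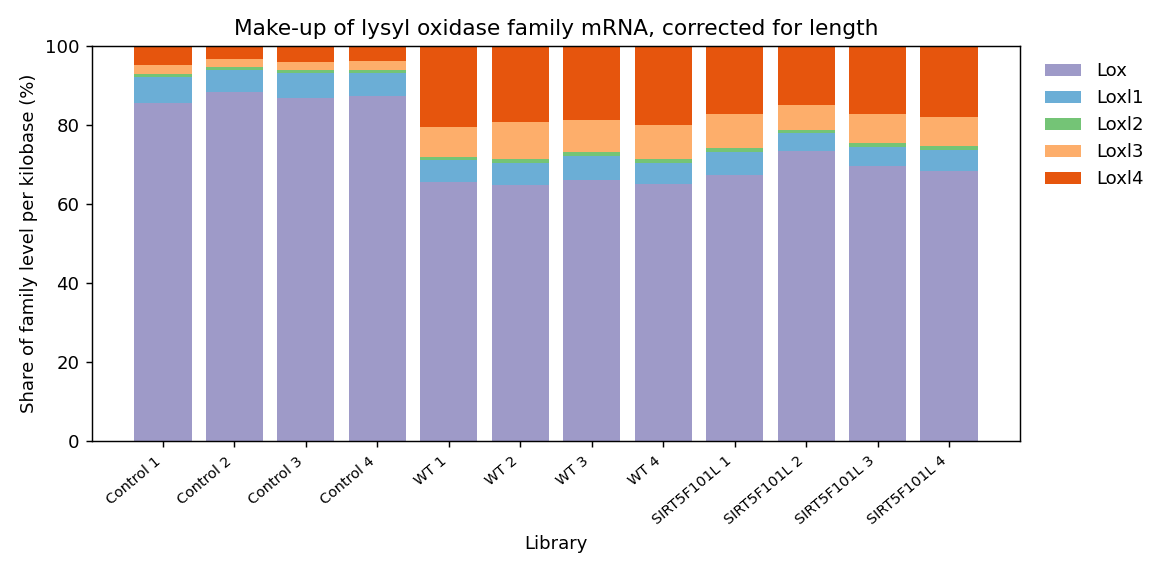
Share of the summed family level per kilobase of exon (vertical axis, percent) held by each member in each of the 12 libraries (bars). Lox makes up 86.9% on average in Control and 65.4% and 69.6% in the plasmid groups, where Loxl4 and Loxl3 take larger shares.

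Most of the genes for collagen substrates were lower too. Counts called in this and the following lists are to be read against the 56.8% and 60.7% of all tested genes called. Of 11 fibrillar collagen genes, 10 were called lower and 1 higher in libraries labelled WT, and 9 lower and 1 higher in those labelled SIRT5F101L, with list medians of -1.44 and -1.49 against -0.01 and -0.02 for all tested genes on the log2 scale. In this and the next paragraphs, paired values are log2 fold changes for WT and then SIRT5F101L. Col1a1 (-1.78 and -1.90) and Col1a2 (-1.90 and -1.99), which encode the chains of type I collagen, fell. So did Col2a1, the gene of the main cartilage collagen (-2.01 and -2.36), and Col3a1 (-1.44 and -1.33). Col11a2 fell most in the list (-2.73 and -3.36), followed by Col27a1 (-2.44 and -2.74), and Col5a3 was the member that rose (0.62 and 0.73). Per kilobase, Lox stood at 0.855 ± 0.0952 of the level of Col1a1 in Control, 1.51 ± 0.0954 in WT and 1.81 ± 0.315 in SIRT5F101L. The same ratio to Col2a1 was 2.28 ± 0.315, 4.71 ± 0.273 and 6.59 ± 1.05.

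Elastic fibre genes went both ways. Of 17, 10 were called lower and 6 higher in each plasmid group (medians -0.63 and -0.77). Eln, which encodes elastin, the other substrate of the family, had 169 to 234 counts in the Control libraries, 1 to 8 in those labelled WT and 0 to 3 in those labelled SIRT5F101L. It was called lower in both (edgeR adjusted p 3.45e-12 and 1.48e-12), but counts this near 0 leave the size uncertain. The microfibril gene Mfap4 was also called lower, from 31 to 56 counts to 0 to 1 and 1 to 5. Fbln5 and Efemp2, whose proteins bring lysyl oxidases to elastin, also fell (Fbln5 -1.24 and -1.24, Efemp2 -0.80 and -0.85). Both were named after their values were seen. Emilin2 (1.19 and 1.12) and Ltbp2 (0.72 and 0.70) rose most in the list.

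Genes that process and position the enzymes were mostly lower. Of 12 tested genes of this list, 9 were called lower and 1 higher in each plasmid group (medians -0.92 and -0.92). Bmp1, the protease that activates pro-lysyl oxidase and removes procollagen propeptides, fell (-0.37, SE 0.06, edgeR adjusted p 1.93e-05 for WT, and -0.46, SE 0.06, edgeR adjusted p 1.43e-06 for SIRT5F101L). Its relative Tll1 rose, from 3.97 to 19.5 and 19.1 CPM (log2 fold change 2.30 and 2.26). Pcolce, which enhances Bmp1 on procollagen, fell (-0.89 and -1.01). Postn, a scaffold that joins Bmp1 to the matrix, fell most (-3.70 and -3.31), followed by Fmod (-2.97 and -3.03), which encodes fibromodulin, a proteoglycan that binds Lox and collagen.

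Lysines are hydroxylated inside the cell before the lysyl oxidases act. Of 10 genes of collagen lysine hydroxylation and its partners, 5 were called lower and 1 higher for WT, and 6 lower and 1 higher for SIRT5F101L (medians -0.19 and -0.32). By direction, 28.1% and 30.7% of all tested genes were called lower. Serpinh1, a chaperone of procollagen, fell (-1.53 and -1.76), as did P3h3 (-0.71 and -0.82). Colgalt2 was called higher from a low level (1.47 to 2.93 and 3.001 CPM). Plod2, the telopeptide lysyl hydroxylase, was not called, at -0.08 (edgeR adjusted p 0.294) and 0.05 (edgeR adjusted p 0.537); it too was named after its values were seen.

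Copper enters the enzymes in the secretory pathway. Of 13 tested genes of copper delivery, 5 were called higher and 3 lower in each plasmid group (medians 0.12 and 0.15), so 8 of 13 were called in all, a share near that of all tested genes. Atp7b, a copper pump, rose from 0.566 to 4.39 and 5.55 CPM (log2 fold change 2.93 and 3.28), on 4 to 18 counts in Control. Mt1, a metallothionein gene, rose too (1.35 and 1.45). The genes that fell were Steap3, a metalloreductase (-1.33 and -1.45), Slc31a2 (-0.37 and -0.42) and Ccs, the copper chaperone of superoxide dismutase (-0.32 and -0.52). Atp7a, the pump known to load Lox, is listed at 0 in every library, as is every one of the 2414 X-linked IDs of GENCODE M21, so its level is unknown. Of 4 tested genes in the list of other copper amine oxidases and secreted copper enzymes, Sod3, which encodes extracellular superoxide dismutase and is not an amine oxidase, rose (1.76 and 1.78). Aoc3, with 46 to 66 counts in Control and 1 to 13 in the plasmid libraries, and Pam (-0.59 and -0.54) were called lower, and Aoc2 was called higher for SIRT5F101L at 0.53 and not for WT at 0.48 (edgeR adjusted p 0.0651), a difference between groups of 0.06.

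Target genes of regulators tied to the family were set beside it. Hypoxia-inducible factors are known to act on Lox and several of its relatives: of 13 tested targets, 9 were called higher and 3 lower in each plasmid group (medians 0.42 and 0.49), with Car12 (2.13 and 2.21) and Slc2a1 (1.16 and 1.24) rising most and P4ha1 (-0.61 and -0.53) and Ndrg1 (-0.55 and -0.29) falling most. Of 12 tested genes responsive to TGF-beta, 7 were called higher in both groups, and 4 lower for WT and 5 for SIRT5F101L (medians 0.50 and 0.37). Skil (1.55 and 1.63) rose most in the list, and Acta2 (-2.52 and -2.80) and Tagln (-1.97 and -1.07, on 20 to 35 counts in Control) fell. Loxl2 and Loxl3 are known partners of SNAIL. Of 6 tested factors of that list 3 were called higher and 3 lower in each group, with Twist2 (1.261 and 1.4998) and Zeb2 (0.54 and 0.88) higher and Snai2 (-1.68 and -1.56) and Twist1 (-0.89 and -1.09) lower. Between the plasmid groups 1 of the 97 tested genes of these 9 lists was called, Col11a2, lower in SIRT5F101L (-0.63, edgeR adjusted p 0.0339). This call was lost in 10 of 12 fits that each left out 1 library, all but those without Control replicate 2 or SIRT5F101L replicate 1, and over the 20 alternatives its edgeR and DESeq2 adjusted p ran from 8.03e-10 to 0.167.

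**Figure D4:**
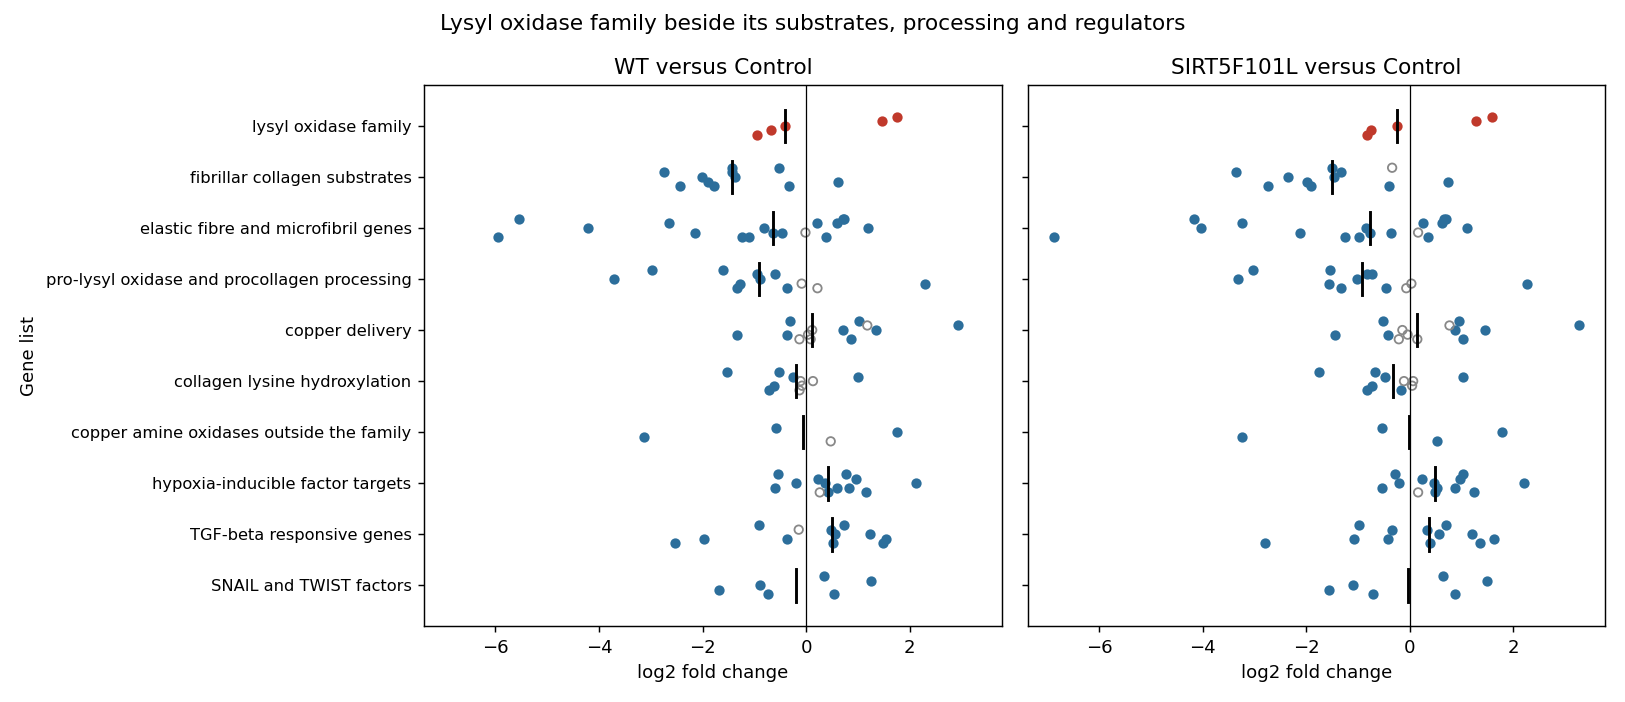
Log2 fold change (horizontal axis) of the 5 family members (red) and of the tested genes of 9 lists (rows) against Control, for WT (left) and SIRT5F101L (right), with filled points for called genes, open points for genes not called and a bar at each row's median. Fibrillar collagens lie mostly lower than Lox, at medians of -1.44 and -1.49, and the points beyond -5 belong to Eln (both panels) and Mfap4 (WT), whose sizes are uncertain because of counts near 0.

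The genes whose levels moved most like each member over the 12 libraries were listed as a description. The libraries fall into separate clusters, Control and both plasmid groups, so a high Pearson r of log2 CPM mostly reflects that step and is shared with many genes. Lox was most like Grb10 (r = 0.994), Eya4 (0.992) and Cdh11 (0.992), with 433 of 9751 candidate genes at an r of at least 0.95. Loxl1 was most like Fgfr3 (r = 0.994), Fzd2 (0.993) and Arsa (0.992). Loxl3 was most like Hmga1b (0.996), Pkn3 (0.996) and Meltf (0.995), and Loxl4 was like Itga6 (0.996) and Skap1 (0.995), with 887 and 976 genes past 0.95. Loxl2 had few close matches: Pm20d1 (0.966) alone passed 0.95, followed by Tdg (0.948) and Mpv17l (0.946).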

How the data were processed

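Processed counts of 12 libraries of mouse chondrocytes were used. Each library has 1 deposited table of raw counts for Ensembl gene IDs. Per the submitters' processing notes, HISAT2 2.2.1, HTSeq 2.0.2, FastQC 0.11.9 and DESeq2 1.38.3 were used with GRCm39; roles, annotation and strand setting are not given in the sources used here. Poly(A) RNA was used with a NEBNext Ultra kit, per the labels' protocols. Symbols matched 52029 of 57010 IDs. IDs of the X and Y chromosomes and mitochondria in GENCODE M21, 3998 in all, are listed at 0 throughout. The zeros are not confined to these. Sco2 (copper delivery), Adm (hypoxia), Timp3 (TGF-beta), and Aoc1 and Tyr (other copper enzymes) are also listed at 0 in every library and were not tested.

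All 12 libraries were fitted with edgeR (4.0.16, R 4.3.3): TMM scaling, default expression filter by group (14253 genes left), quasi-likelihood F test with 9 residual degrees of freedom, 2-sided, Benjamini-Hochberg adjustment over all genes. The standard error is the fold change divided by the square root of F. CPM uses TMM-scaled library sizes. Exon lengths and overlaps are from GENCODE M21 (GRCm38, another build than the authors'), used for lengths and neighbours only. On simulated counts for WT against Control, 79.6% of 98 genes changed 2-fold and 55.0% of 100 changed by 0.5 (log2) were called among 14116 genes, and 7.64% of calls were false. No 2 libraries were identical, and all pairs within groups differed by 2.55 to 8.92 times sampling noise.

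Alternatives were RLE and upper-quartile scaling, other filters, a robust prior, fits of 8 libraries, DESeq2 1.42.0, a transcript length trend as offset (loess span 0.5), each library left out, and other length corrections. Named were, with exceptions marked in the text, the 5 members, in each of 9 lists (107 genes, 97 tested) the 2 highest and 2 lowest called genes per comparison with Control, 7 fixed genes (Col1a1, Col1a2, Col2a1, Col3a1, Eln, Bmp1, Pcolce) and the 3 genes most like each member (mean of at least 5 CPM). Single cell type markers, genes that overlap members, Sirt5 and genes listed at 0, such as Atp7a, were named outside this rule. Members and lists were chosen with earlier results of these data known. Replicate numbers follow the order of deposition and pair nothing. Some genes that this rule names are not reported here. Promoter sequence was present for 1 member.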

Additional observations from a re-analysis of the deposited data

Results flagged for a closer look

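In a screen of 54 sets of 4 libraries, for a single library whose gap to its neighbour takes up most of the range of its group, 2 stood out, where chance gives about 1 in 20 (2.7 here). Neither was a family member. Eln, the elastin gene, was at 8.57 CPM in Control replicate 2 against 12.1 to 12.8 CPM in the other Control libraries. Bmp1, which encodes the activating protease, was at 147 CPM in Control replicate 2 against 158 to 160 CPM. Both values are low in the same library and remain far above (Eln) or above (Bmp1) those of the plasmid groups.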

How the results depend on the processing

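Against Control, direction and call of all 5 members were the same in 100 of 100 values for WT and 100 of 100 for SIRT5F101L, over 20 alternatives each. Between the plasmid groups 98 of 100 were the same, and the number of members called was 0 to 2 when libraries were left out in turn, and it was 2 without SIRT5F101L replicate 1. With all libraries it was 0 by edgeR and 0 by DESeq2, and 3 members had an unadjusted edgeR p under 0.05. Over the whole table that comparison called 6 genes, and 0 to 2213 over the alternatives. List counts against Control stayed within 1.5 times in all 180 values of each comparison. Between the plasmid groups, where 28 of 180 did not, the reported count of 1 for fibrillar collagens ran from 0 to 2, and reported counts of 0 reached 2 for elastic fibre, 1 for processing, 4 for copper delivery, 5 for lysine hydroxylation, 1 for hypoxia, 2 for TGF-beta and 3 for SNAIL and TWIST genes. With counts not divided by length, shares of the family in Control, WT and SIRT5F101L were 89.0%, 68.3% and 72.3% for Lox, 4.33%, 4.03% and 3.72% for Loxl1, 0.983%, 1.0999% and 1.20% for Loxl2, and 18.1% (WT) and 15.5% (SIRT5F101L) for Loxl4. With the longest transcript as length they were 63.3% for Lox in WT, 2.33% for Loxl3 in Control, and 21.2% and 18.4% for Loxl4 in WT and SIRT5F101L. No paired analysis was possible because the labels give no replicate numbers that groups share.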
